A study of Mus musculus with 4 samples.

Results

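The RNA of 9 mast cell genes was followed in whole mammary fat pad (MFP) of aged and young mice. The genes are the granule proteases Cma1, Mcpt4, Cpa3, Tpsb2 and Tpsab1, the IgE receptor chains Fcer1a and Ms4a2, the receptor Mrgprb1 and the histamine-forming enzyme Hdc. They were taken by gene symbol, and each symbol matched 1 row of the 55487 genes in the deposited table. Aged MFP came from 14-month-old and young MFP from 8-week-old mice, with 2 biological replicates at each age. The study's methods describe its mice as female. All 4 samples were mammary fat pads of C57BL/6J mice by their labels, which name no treatment or altered gene and do not say whether a replicate is 1 animal or several pooled. The tissue was chopped and lysed whole, so that the RNA of every cell type in the pad entered the library.

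Mast cells are resident immune cells of connective tissue that store histamine, heparin and proteases in secretory granules. They release these when IgE bound to its high-affinity receptor is crosslinked by antigen, or when receptors of the Mas-related family are engaged. In fat and mammary tissue they lie along vessels, nerves and ducts, and the connective tissue type, which carries chymases, carboxypeptidase and tryptases together, differs from the mucosal type by its proteases.

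Total counts were between 68803304 and 98402403 per library, and 3 counts, taken as the floor, corresponded to 0.0337 to 0.0407 CPM, the unit used for counts after division by the TMM-scaled library size. One library stood apart. In young replicate 1 the summed level of 6 T and B cell markers reached 491 CPM, against 3.14 in the other young library and 5.76 and 50.04 in aged replicates 1 and 2. The same library had the lowest CPM of the 4 for 9 of the 9 mast cell genes, which held for 33.8% of all genes tested. On unscaled library totals it was lowest for 8 of the 9, the exception being Tpsab1. The part of the lymphocyte RNA in the low mast cell values was not tested, and the values of the 9 genes and of the lists that changed most are also given without this library. The 5 adipocyte markers summed to between 3047 and 5311 CPM, so the fat of the labelled tissue was present in every library.

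The 9 genes together received 1407 and 2016 counts in aged and 283 and 1043 counts in young MFP. Summed, they reached 17.2 and 22.6 CPM in the aged libraries, against 3.45 in young replicate 1 and 14.1 in young replicate 2. Both aged libraries were above both young ones, and the gap between the young libraries was wider than the gap from young replicate 2 to either aged library. In bulk tissue, fewer mast cells and less RNA per mast cell cannot be told apart.

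Of the 9 genes, 8 had enough counts for the test and Tpsab1 did not. With Benjamini-Hochberg adjustment of edgeR's quasi-likelihood p-values, 0 of the 8 passed an adjusted p of 0.05, where 0% of the 22485 genes tested passed. At an unadjusted p under 0.05, 2 of the 8, Mcpt4 and Fcer1a, were higher in aged MFP, and 7.24% of all genes tested were higher by that measure. None of the 8 was lower by it, against 3.31% of all genes tested. With DESeq2, 0 of the members passed an adjusted p of 0.05, against 3.24% of genes called higher, and DESeq2 gave no adjusted p for Fcer1a. In CPM, both aged libraries lay above both young ones for 6 of the 9 genes, Cma1, Mcpt4, Cpa3, Tpsb2, Ms4a2 and Fcer1a. That order was seen in 23.3% of all genes tested. For 0 of the 9 did both aged libraries lie below both young ones, against 22.8% of all genes tested. Under upper quartile scaling or with total counts only, Tpsb2 overlapped between the ages and 5 genes remained apart. The median log2 fold change (aged over young) of the 8 tested genes was 1.50, against a median of -0.04 over all genes tested, of which 47% were positive. Fcer1a entered the test through its aged libraries alone, so such counts over the tested genes are descriptions only. Without a filter on low counts, the median over all 9 genes was 1.42.

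**Figure D1:**
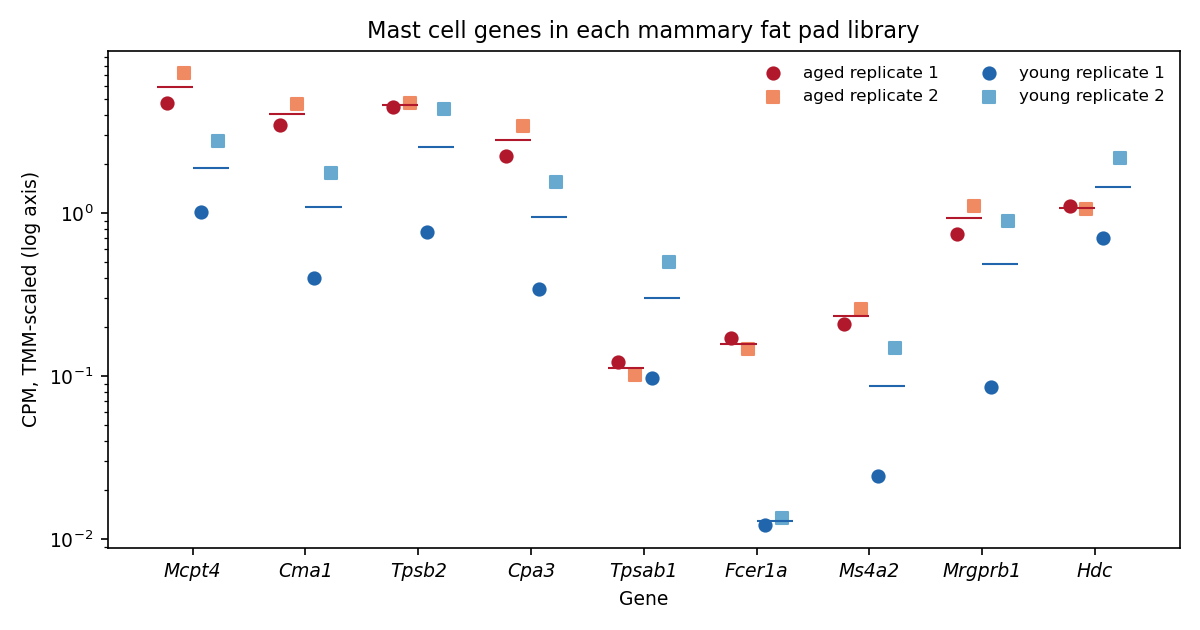
TMM-scaled CPM (log axis) of the 9 mast cell genes in the 4 MFP libraries, with 1 point per library and a line at the mean of each age (n = 2). Young replicate 1 is the lowest point for every gene (for all but Tpsab1 on unscaled totals), and both aged points lie above both young points for Mcpt4, Cma1, Tpsb2, Cpa3, Fcer1a and Ms4a2, with Tpsb2 overlapping under 2 other scalings.

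The promoters of the genes that stood higher in both aged libraries are shown next, except that of Tpsb2. Cma1, Mcpt4, Cpa3, Tpsb2 and Ms4a2 stood in the same order in the 4 samples, while Fcer1a was highest in aged replicate 1. RefSeq promoters (GRCm38.p6, from 250 bases before to 50 bases after the annotated start) were matched for 7 of the 9 members, all except Tpsb2 and Tpsab1. GATAA, the core letters recognised by GATA factors, was searched on both strands, so that TTATC marks a match on the other strand. CATGTG and CACGTG, letters recognised by the helix-loop-helix factor MITF, were also searched on both strands, where CACATG is the other strand of CATGTG. In the 5 sequences, written 5′ to 3′ on the strand of the gene, the capitals mark GATAA or TTATC and, in Fcer1a, also CACATG.
Cma1, chr14:55944626-55944925, minus strand: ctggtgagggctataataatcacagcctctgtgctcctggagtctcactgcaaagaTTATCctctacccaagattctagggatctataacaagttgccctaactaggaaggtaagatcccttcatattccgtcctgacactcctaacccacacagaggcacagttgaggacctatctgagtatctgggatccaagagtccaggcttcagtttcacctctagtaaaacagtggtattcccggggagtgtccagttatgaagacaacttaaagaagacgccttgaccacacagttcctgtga
Mcpt4, chr14:56062261-56062560, minus strand: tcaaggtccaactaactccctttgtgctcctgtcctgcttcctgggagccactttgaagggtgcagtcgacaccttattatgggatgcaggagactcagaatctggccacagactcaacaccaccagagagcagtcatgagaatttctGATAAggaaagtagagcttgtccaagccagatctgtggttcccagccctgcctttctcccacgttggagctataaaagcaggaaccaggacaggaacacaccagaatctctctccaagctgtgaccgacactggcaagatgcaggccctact
Cpa3, chr3:20242132-20242431, minus strand: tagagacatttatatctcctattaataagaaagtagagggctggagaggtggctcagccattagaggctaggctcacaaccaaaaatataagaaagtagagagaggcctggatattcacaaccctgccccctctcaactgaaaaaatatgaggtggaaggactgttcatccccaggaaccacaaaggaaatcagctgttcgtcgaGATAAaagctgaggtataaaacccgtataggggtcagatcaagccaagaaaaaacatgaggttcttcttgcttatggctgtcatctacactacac
Ms4a2, chr19:11623670-11623969, minus strand: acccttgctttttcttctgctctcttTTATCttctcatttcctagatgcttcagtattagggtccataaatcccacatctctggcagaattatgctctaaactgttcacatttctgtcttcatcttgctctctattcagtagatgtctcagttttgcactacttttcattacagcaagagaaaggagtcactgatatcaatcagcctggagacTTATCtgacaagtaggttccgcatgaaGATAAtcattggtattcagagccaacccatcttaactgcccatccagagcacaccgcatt
Fcer1a, chr1:173227180-173227479, minus strand: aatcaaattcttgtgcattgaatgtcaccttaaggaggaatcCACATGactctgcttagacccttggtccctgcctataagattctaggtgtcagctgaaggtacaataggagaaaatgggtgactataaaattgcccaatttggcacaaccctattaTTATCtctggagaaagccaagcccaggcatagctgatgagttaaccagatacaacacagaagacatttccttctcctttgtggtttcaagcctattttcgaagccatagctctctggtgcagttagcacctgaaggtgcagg

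GATAA in either orientation was present in 6 of the 7 matched promoters, those printed and that of Mrgprb1, and absent from the 300 bases of Hdc. Of 32851 mouse promoters of the same length, 25.4% held it. Ms4a2 held 3 matches, at positions -224, -37 and -10 from the start, and 5.27% of all promoters held at least 2. In the others the match lay at -194 in Cma1, -102 in Mcpt4, -45 in Cpa3, -92 in Fcer1a and 41 bases after the start in Mrgprb1. CATGTG was found in Fcer1a alone among the 7, and in 14.2% of all promoters. CACGTG was found in 0 of the 7 and in 7.15% of all promoters. These are letter matches in short windows, and binding was not measured in these samples.

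The chymases and the carboxypeptidase of the granule are taken first. Cma1 (ENSMUSG00000022225, GRCm38 chromosome 14, 55941451 to 55944675, minus strand) encodes mouse mast cell protease 5, which shares the granule with carboxypeptidase A3. It had 284 and 413 counts in aged replicates 1 and 2, 33 counts in young replicate 1 and 130 counts in young replicate 2. Both aged libraries were above both young ones, which themselves lay 4.38-fold apart. Cma1 averaged 4.06 ± 0.823 CPM in aged MFP and 1.08 ± 0.961 CPM in young MFP (SD, n = 2 each). Its log2 fold change was 1.91 (SE, standard error, 0.79; adjusted p = 0.501 in edgeR's quasi-likelihood fit), and it did not pass the test. Against young replicate 2 alone the mean of the aged libraries was 2.30-fold higher.

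Mcpt4 (ENSMUSG00000061068, chromosome 14, 56059629 to 56062313, minus strand) encodes the chymase of connective tissue mast cells and lies on the same strand of the same chromosome as Cma1. It had 384 and 640 counts in aged MFP, 83 counts in young replicate 1 and 203 counts in young replicate 2. It had the most counts of the 9 genes in 3 of the libraries, and in young replicate 2 Tpsb2 had more. The ages did not overlap, and the young libraries were 2.72-fold apart where the aged ones were 1.53-fold apart. Mcpt4 averaged 5.94 ± 1.76 CPM in aged MFP and 1.88 ± 1.23 CPM in young MFP (SD, n = 2 each). The log2 fold change was 1.66 (SE 0.60), with an unadjusted p of 0.0483 and an adjusted p of 0.471 by edgeR's quasi-likelihood test.

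Cpa3 (ENSMUSG00000001865, chromosome 3, 20215620 to 20242181, minus strand) encodes mast cell carboxypeptidase A3, an exopeptidase of the granule. Its counts were 182 and 304 in aged MFP, 28 in young replicate 1 and 115 in young replicate 2. The order of the 4 libraries was that of Cma1 and Mcpt4, with aged replicate 2 highest and young replicate 1 lowest. Cpa3 averaged 2.82 ± 0.840 CPM in aged MFP and 0.950 ± 0.860 CPM in young MFP (SD, n = 2 each). Its log2 fold change was 1.57 (SE 0.82, adjusted p = 0.535 in edgeR's quasi-likelihood fit). Basophils also express Cpa3, and Mcpt8, a protease of basophils, had 1 count in each aged library and 0 counts in the young ones. Other basophil markers had more. Cd200r3 had 23 and 33 counts in aged MFP, 71 in young replicate 1 and 22 in young replicate 2. Prss34 had 4 and 7 counts in aged MFP, 2 in young replicate 1 and 14 in young replicate 2, and Il4 had 6 to 8 counts in a library. The part of basophils in the Cpa3 values was not tested.

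The 2 tryptases differed from each other. Tpsb2 (ENSMUSG00000033825, chromosome 17, 25366305 to 25369098, plus strand) encodes mouse mast cell protease 6, a trypsin-like protease that is stored as a tetramer with heparin. It had 365 and 421 counts in aged MFP, 63 counts in young replicate 1 and 320 counts in young replicate 2. In CPM the order was 4.46 and 4.73 in aged, 0.768 in young replicate 1 and 4.34 in young replicate 2. The aged libraries and young replicate 2 therefore lay close together, and the difference of the means came from young replicate 1. The log2 fold change was 0.85 with all samples (SE 0.86, adjusted p = 0.690 in edgeR's quasi-likelihood fit) and 0.08 without young replicate 1.

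Tpsab1 (ENSMUSG00000024173, chromosome 17, 25343245 to 25345562, minus strand) encodes mouse mast cell protease 7, whose protein C57BL/6 mice are known to lack because of a splice site mutation. It had 10 and 9 counts in aged MFP, 8 counts in young replicate 1 and 37 counts in young replicate 2. Young replicate 2 was the high library and the other 3 lay within 0.0976 to 0.122 CPM. It fell below the filter on low counts and was not tested in the main comparison. Without the filter its log2 fold change was -1.42 (SE 0.88, adjusted p = 0.700 in edgeR's quasi-likelihood fit), and the ages overlapped. Within each library, Tpsb2 had 36.5 and 46.8 times as many counts as Tpsab1 in aged MFP, against 7.88 and 8.65 times in young MFP. This ratio did not overlap between the ages and does not depend on how the libraries were scaled. The transcripts of both genes share 0 stretches of 50 bases, and their aligned coding transcripts are 75.6% identical over 1004 bases, so that reads of 50 matching bases could be told apart. With the counts of both summed into 1 feature, the log2 fold change was 0.72 (adjusted p = 0.728 in edgeR's quasi-likelihood fit).

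**Figure D2:**
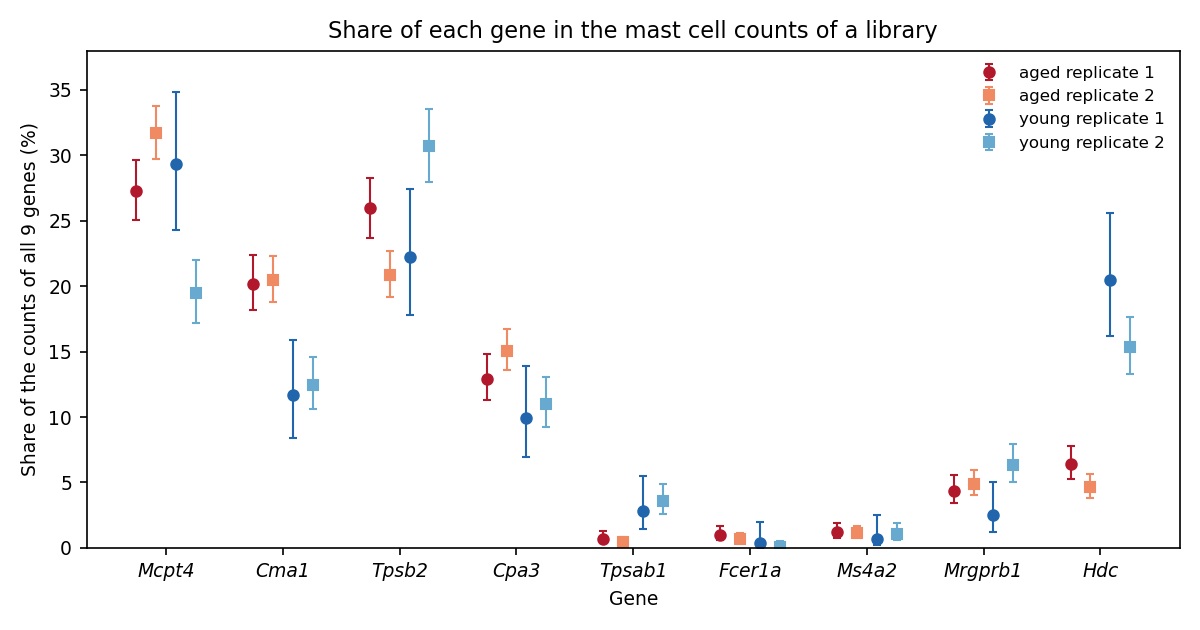
Share of each gene in the counts of the 9 mast cell genes (percent) in each MFP library, with Wilson 95% intervals that cover counting error only. The shares of Cma1 are higher, and those of Hdc and Tpsab1 lower, in both aged libraries with intervals apart from both young libraries.

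The high-affinity IgE receptor is built from an alpha chain that binds IgE, a beta chain that amplifies the signal and paired gamma chains. Fcer1a (ENSMUSG00000005339, chromosome 1, 173221284 to 173227214, minus strand) encodes the alpha chain. It had 14 and 13 counts in aged MFP and 1 count in each young library. Both young libraries were under the floor of 3 counts and both aged ones above it, and Fcer1a was the gene of the 9 whose young libraries lay closest together. The 27 aged and 2 young counts gave a ratio of 12.3 relative to library size, with an exact 95% interval of 3.09 to 107 that covers counting error only. Its log2 fold change was 3.48 (SE 0.57), with an unadjusted p of 0.00318 and an adjusted p of 0.360 by edgeR's quasi-likelihood test. The fitted value depends on the prior count at these levels. It was 3.41 without young replicate 1 and 3.56 without young replicate 2, but with 1 count in each young library, both under the floor, these values could hardly differ and say nothing of stability.

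Ms4a2 (ENSMUSG00000024680, chromosome 19, 11615523 to 11623719, minus strand) encodes the beta chain. It had 17 and 23 counts in aged MFP, 2 counts in young replicate 1 and 11 counts in young replicate 2. The ages did not overlap, but young replicate 2 was nearer to the aged libraries than to young replicate 1. Its log2 fold change was 1.43 (SE 0.85, adjusted p = 0.555 in edgeR's quasi-likelihood fit), and 0.64 without young replicate 1. Fcer1g, the gamma chain that macrophages and other myeloid cells also use, had 649 and 1055 counts in aged MFP, 708 in young replicate 1 and 452 in young replicate 2. The gamma chain overlapped between the ages, at a log2 fold change of 0.42 (adjusted p = 0.611 in edgeR's quasi-likelihood fit).

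Mrgprb1 (ENSMUSG00000070547, chromosome 7, 48444113 to 48456342, minus strand) encodes a G protein-coupled receptor of the Mas-related family. It had 61 and 99 counts in aged MFP, 7 counts in young replicate 1 and 66 counts in young replicate 2. The young libraries were 10.5-fold apart in CPM, the widest gap of the 9 genes, and young replicate 2 lay between the aged libraries. The log2 fold change was 0.93 (SE 1.11, adjusted p = 0.732 in edgeR's quasi-likelihood fit) and 0.05 without young replicate 1. Mrgprb2, the related receptor through which basic peptides and drugs activate mouse mast cells, had 8 and 34 counts in aged MFP and 8 and 29 counts in young MFP, and its ages overlapped.

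Hdc (ENSMUSG00000027360, chromosome 2, 126593667 to 126619299, minus strand) encodes histidine decarboxylase, the enzyme that makes histamine. It had 90 and 94 counts in aged MFP, 58 counts in young replicate 1 and 160 counts in young replicate 2. The aged libraries lay between the young ones. Hdc averaged 1.08 ± 0.0319 CPM in aged MFP and 1.44 ± 1.03 CPM in young MFP (SD, n = 2 each). It was the 1 tested gene of the 9 with a negative log2 fold change, -0.41 (SE 0.63, adjusted p = 0.794 in edgeR's quasi-likelihood fit). The value was -1.01 without young replicate 1 and 0.62 without young replicate 2, so its direction was set by which young library was kept. Neutrophils and basophils can express Hdc too. The 5 neutrophil markers summed to between 0.171 and 0.464 CPM in the 4 libraries, with S100a8 at 6 to 12 counts, and the 4 basophil markers to between 0.428 and 0.964 CPM. The basophil protease Prss34 had 4 and 7 counts in aged MFP, 2 in young replicate 1 and 14 in young replicate 2. Like Hdc, it was lowest and highest in the young libraries. Cd200r3, the 1 basophil marker tested, was highest in young replicate 1, where Hdc was lowest. It had 23 and 33 counts in aged MFP, 71 in young replicate 1 and 22 in young replicate 2. Il4 had 7 and 8 counts in aged MFP, 6 in young replicate 1 and 7 in young replicate 2. The part of neutrophils and basophils in the Hdc values was not tested.

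The size of most of these differences depended on which young library they were set against. The gap between young replicates 1 and 2 was larger than the gap from young replicate 2 to the mean of the aged libraries for 8 of the 9 genes. The exception was Fcer1a, which had only 1 count in each young library. Against young replicate 2 alone, the aged mean was 2.30-fold for Cma1, 2.16-fold for Mcpt4, 1.81-fold for Cpa3 and 1.56-fold for Ms4a2. For Tpsb2 and Mrgprb1 it was 1.06-fold and 1.04-fold, and for Hdc and Tpsab1 it was 0.497 and 0.223 of the level in young replicate 2. The median log2 fold change of the genes tested was 0.64 without young replicate 1 and 3.12 without young replicate 2. Leaving out aged replicate 1 gave 1.56 and leaving out aged replicate 2 gave 1.23. By edgeR's quasi-likelihood test 0 members passed an adjusted p of 0.05 in any of these fits, which assume that a lone sample varies like the pair of the other age. At an unadjusted p under 0.05 without young replicate 1, Cma1, Mcpt4 and Fcer1a, 3 of 9, were higher in aged MFP, against 7.24% of all genes tested in that fit. In the same fit 2 of 9, Tpsab1 and Hdc, were lower, against 4.88% of all genes. Without young replicate 2, 7 of 8 were higher, all except Hdc, where 13.2% of all genes were higher, and 0 of 8 were lower, where 14.7% of all genes were.

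**Figure D3:**
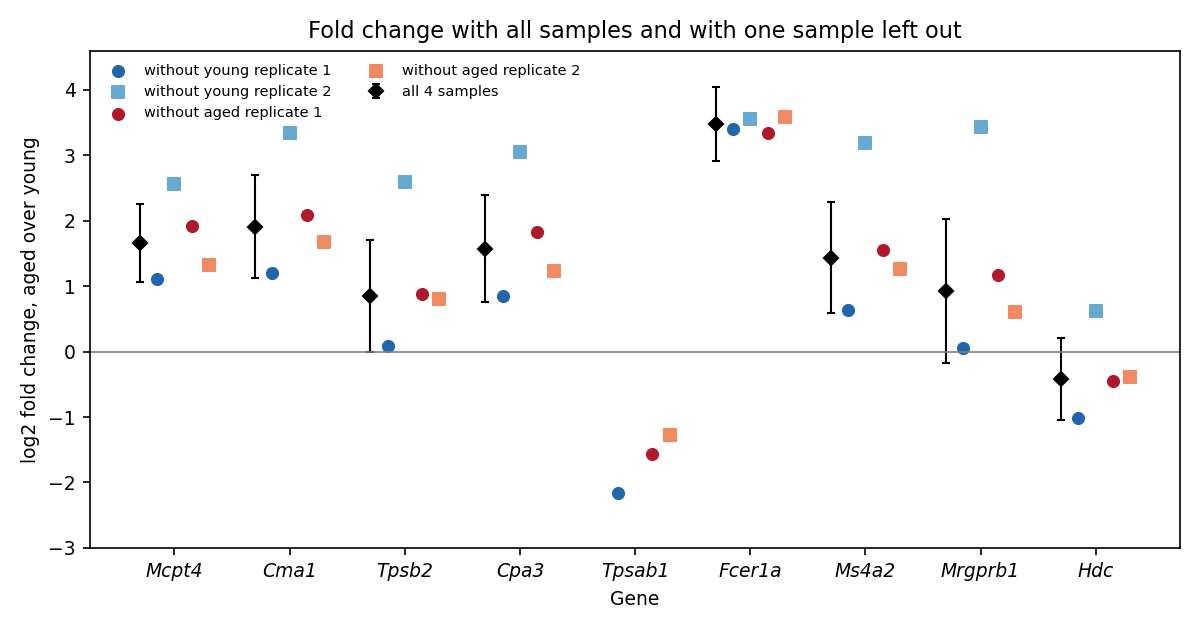
log2 fold change, aged over young, for each mast cell gene with all 4 samples (diamond, bar: standard error) and with 1 sample left out (other points). Tpsb2 and Mrgprb1 fall to near 0 without young replicate 1, and Hdc changes sign without young replicate 2. Tpsab1 has points only where it passed the filter on low counts, and the points of Fcer1a, with 1 count in each young library, could hardly differ.

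To compare the genes with each other without scaling between libraries, the counts of each gene were taken as a share of the counts of all 9 in the same library. Cma1 made up 20.2% (Wilson 95% interval 18.2 to 22.4) and 20.5% (18.8 to 22.3) in aged MFP, 11.7% (8.42 to 15.9) in young replicate 1 and 12.5% (10.6 to 14.6) in young replicate 2. Here the young libraries were alike, and both lay under both aged libraries. Hdc made up 6.40% (5.23 to 7.80) and 4.66% (3.83 to 5.67) in aged MFP, against 20.5% (16.2 to 25.6) and 15.3% (13.3 to 17.7) in young MFP. Tpsab1 made up 0.711% (0.387 to 1.30) and 0.446% (0.235 to 0.846) in aged MFP, against 2.83% (1.44 to 5.48) and 3.55% (2.58 to 4.85) in young MFP. The intervals of Cma1, Hdc and Tpsab1 were apart between the ages. Cpa3, Ms4a2 and Fcer1a also had higher shares in both aged libraries, but with intervals that met those of at least 1 young library, and the shares of Mcpt4, Tpsb2 and Mrgprb1 overlapped. No share over other genes was set beside these. Shares of 1 total are not independent of each other, and the intervals do not hold the spread between animals. An exact two-sided permutation of 2 libraries against 2 cannot go below p = 0.333, so no exact test of a single share or ratio could pass 0.05, and none was run. As a ratio of counts, Hdc to Cma1 was 0.317 and 0.228 in aged MFP and 1.76 and 1.23 in young MFP. Mcpt4 to Cma1 was 1.35 and 1.55 in aged MFP and 2.52 and 1.56 in young MFP, where young replicate 2 lay just above aged replicate 2. Tpsb2 to Cma1 was 1.285 and 1.019 in aged MFP and 1.909 and 2.462 in young MFP. Cpa3 to Cma1 was 0.6408 and 0.7361 in aged MFP and 0.8485 and 0.8846 in young MFP. Of these ratios, Hdc to Cma1 and Tpsb2 to Tpsab1 separated the ages most widely, and neither rested on young replicate 1. Tpsab1 had only 8 to 37 counts in a library, and no ratios of other gene pairs were set beside these.

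Levels of different genes were set side by side per kilobase of exon, in CPM per kb. In aged MFP, Mcpt4 was highest at 5.36, followed by Cma1 at 3.72, Tpsb2 at 2.88 and Cpa3 at 1.86. Over these exon lengths, the aged values of Mcpt4 and Cma1 overlapped, and those of Cma1, Tpsb2 and Cpa3 did not. In young MFP the order was Mcpt4 at 1.70, Tpsb2 at 1.60, Cma1 at 0.993 and Cpa3 at 0.626, and neighbours in that order lay within the spread of the young libraries. Over the longest coding transcript, which is shorter for Tpsb2, the order of Tpsb2 changed. It was then highest in young MFP, at 1.98 against 1.70 for Mcpt4, and its aged values of 3.46 and 3.67 lay within those of Cma1, 3.19 and 4.25. The receptor genes were far lower. In aged MFP, Mrgprb1 was at 0.222, Fcer1a at 0.159 and Ms4a2 at 0.0829, and in young MFP Mrgprb1 was at 0.117, Ms4a2 at 0.0308 and Fcer1a at 0.0129. Hdc was at 0.169 in aged and 0.225 in young MFP over all its annotated exons, which include a retained intron, and at 0.451 and 0.601 over its longest coding transcript. Tpsab1 was lowest in aged MFP at 0.0533, and at 0.143 in young MFP.

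Uniqueness of the sequences limits some of these values. Of the 50-base stretches in the transcripts, 5.38% of those of Cma1 also occur in Gm48934, 5.48% of those of Mcpt4 in Cma2 and 2.10% of those of Ms4a2 in Ms4a4b, so that a small part of their reads could be placed in either gene. No gene annotated on the opposite strand overlaps any of the 9. On the same strand Mir7007 overlaps Cpa3, and its part in the Cpa3 counts was not tested.

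Other genes of mast cell biology were taken from lists by role. Of 47 such genes, 39 were tested, and 0 passed an adjusted p of 0.05 by edgeR's quasi-likelihood test, the smallest being 0.387. At an unadjusted p under 0.05, C5ar1, C3ar1 and Hnmt were higher and Gata1 was lower in aged MFP, and by DESeq2 C5ar1 passed an adjusted p of 0.05. These 3 and 1 of 39 stand beside 7.24% and 3.31% of all genes tested. Gata1 entered the test through its young libraries alone, so its part in these counts is a description only. Their median log2 fold change was 0.28, with 23 positive and 16 negative, against 1.50 for the 8 tested members and -0.04 for all genes tested. Both aged libraries lay above both young ones for 12 and below them for 5 of the 39, where 23.3% and 22.8% of all genes tested did so. Without young replicate 1 the median of the other genes, 40 of which were then tested, was 0.18, against 0.64 for the members.

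Of 6 further granule proteases, Mcpt1, Mcpt2 and Mcpt9 had 0 counts in every library. Mcpt1 and Mcpt2 are the chymases of the mucosal mast cell type, and a total of 0 counts allows up to 3 counts in a library, or up to 0.0407 CPM. Gzmb and Tpsg1 were the proteases tested, with log2 fold changes of 0.72 and 0.05.

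Among the receptors and transcription factors of the lineage, 8 were tested, with 4 positive and 4 negative and a median log2 fold change of 0.06. Kit, the receptor for stem cell factor on which mast cells depend and which mammary epithelium also expresses, had 19051 and 19793 counts in aged MFP, 8008 counts in young replicate 1 and 17683 counts in young replicate 2. Per kilobase it stood at 25.5 CPM in aged and 18.9 CPM in young MFP, above every one of the 9 members, and the ages overlapped. Gata2, a transcription factor of mast cells and other blood progenitors, had the highest value, 0.67, with 1329 and 1072 counts in aged and 603 and 773 in young MFP. Gata1, which mast cells share with the erythroid lineage, had the lowest, -3.28 (adjusted p = 0.474 in edgeR's quasi-likelihood fit), with 4 and 7 counts in aged MFP, 93 in young replicate 1 and 10 in young replicate 2. Gata1 and Gata2 did not overlap between the ages, in opposite directions, and Gata1 entered the test through its young libraries alone. Without young replicate 1, Gata1 was at -1.06, Gata2 at 0.43 and Kit at -0.08.

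Of the 9 genes listed for signalling by the IgE receptor, the gamma chain Fcer1g and the kinases and adaptors below it, 8 had a negative log2 fold change, with a median of -1.10, and 0 passed the test. Lat, an adaptor that T cells also use, was lowest at -3.56, with 125 and 490 counts in aged MFP, 6689 in young replicate 1 and 93 in young replicate 2. Its counts were highest in the library with the most lymphocyte markers, in which Cd3e of the T cell receptor complex had 10165 counts against 54, 154 and 891 in the others. Without young replicate 1 the median of the 9 was 0.06 and Lat was at 1.48, so the direction of the list depended on that library. The part of T and B cells in these values was not tested.

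Among the other activating receptors, C3ar1, the receptor for complement C3a, was highest at 1.19, with 683 and 747 counts in aged and 222 and 343 in young MFP. C5ar1, the receptor for C5a, had 752 and 735 counts in aged and 347 and 321 in young MFP, at a log2 fold change of 1.02 (SE 0.22, adjusted p = 0.387 in edgeR's quasi-likelihood fit). Both receptors were higher in both aged libraries, at 0.85 for C3ar1 and 1.00 for C5ar1 without young replicate 1, and both are also expressed by macrophages. Macrophage markers summed to 306 and 365 CPM in aged and 237 and 221 CPM in young MFP, and their part in these values was not tested.

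The genes of amine storage and the granule matrix were mixed, with 0.16 as the median log2 fold change of the 4. Tph1, which makes serotonin in mast cells and other cells outside the nervous system, was highest at 1.89, with 771 and 1846 counts in aged MFP, 150 in young replicate 1 and 465 in young replicate 2 (adjusted p = 0.496 in edgeR's quasi-likelihood fit). Its libraries stood in the order of Cma1, Mcpt4 and Cpa3. Slc18a2, which loads amines into granules, had 57 and 70 counts in aged MFP, 10 in young replicate 1 and 73 in young replicate 2, so that young replicate 2 overlapped the aged libraries as it did for Mrgprb1. Srgn, the proteoglycan core that holds proteases in the granule and that lymphocytes also express, was lowest at -0.78, and at 0.83 without young replicate 1. Without that library Tph1 was at 1.26 and Slc18a2 at -0.42.

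**Figure D4:**
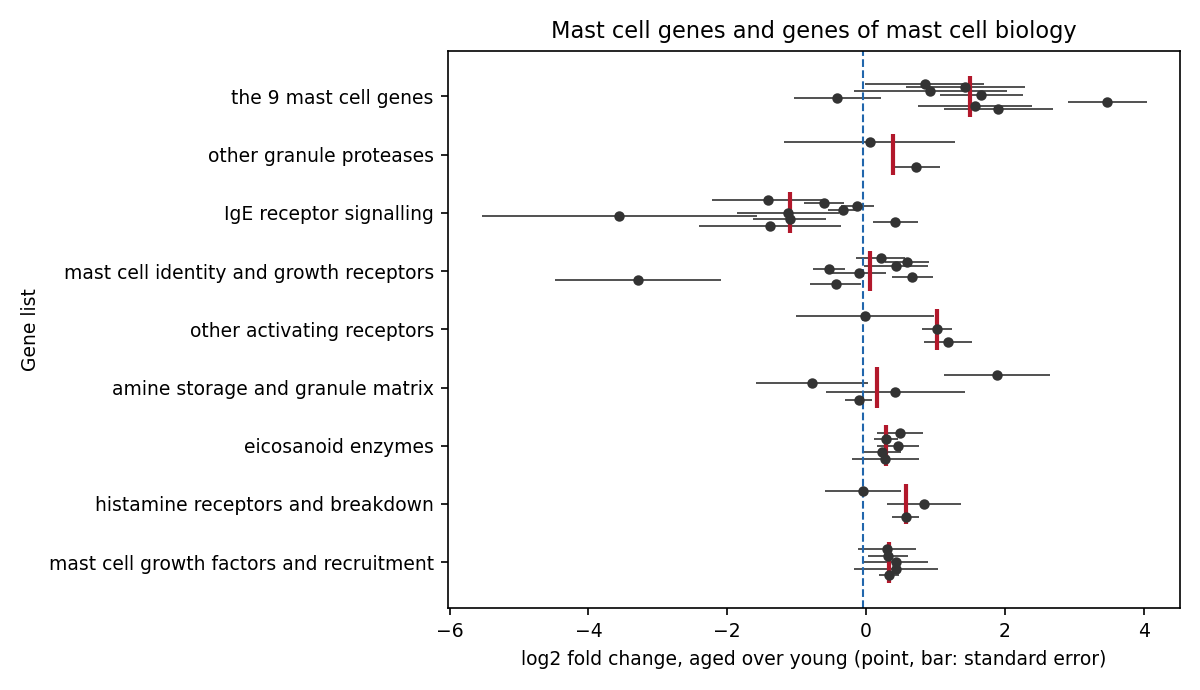
log2 fold change, aged over young (point, bar: standard error) for each tested gene of the 9 mast cell genes and of 8 lists of mast cell biology, with the median of each list as a red line and the median of all genes tested, -0.04, as a dashed line. The members have a median of 1.50 and the IgE receptor signalling genes one of -1.10.

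Marker lists of other cell types also differed between the libraries. Skeletal muscle markers summed to 16883 and 33225 CPM in aged MFP and 4794 and 7540 CPM in young MFP, and adipocyte markers to 5311 and 3710 CPM in aged and 3047 and 3065 CPM in young MFP. Fibroblast markers, whose cells share the connective tissue with mast cells, summed to 2504 and 1857 CPM in aged and 3970 and 4628 CPM in young MFP. Per 1000 CPM of fibroblast markers, the 9 genes summed to 6.87 and 12.2 CPM in aged MFP, 0.870 in young replicate 1 and 3.05 in young replicate 2. Per 1000 CPM of macrophage markers they summed to 56.3 and 62.1 in aged MFP, 14.6 in young replicate 1 and 64.0 in young replicate 2. Per 1000 CPM of adipocyte markers they summed to 3.24 and 6.10 in aged MFP, 1.13 in young replicate 1 and 4.61 in young replicate 2, and per 1000 CPM of muscle markers to 1.02 and 0.681, 0.720 and 1.87. The ages were apart relative to the fibroblast list and overlapped relative to macrophages, adipocytes and muscle. The fibroblast list was itself split, with the collagens Col1a1, Col1a2 and Col3a1 lower and Pdgfra, Dcn and Lum higher in both aged libraries. Per 1000 CPM of Dcn, a proteoglycan of fibroblasts, the 9 genes summed to 63.2 and 91.3 in aged MFP. They summed to 38.8 in young replicate 1 and 120.0 in young replicate 2. These values overlapped between the ages, as did those per Pdgfra and per Lum. Relative to Col1a1, Col1a2, Col3a1, Pi16 and Dpp4 the ages were apart. For Col1a1 the values per 1000 CPM were 34.21 and 64.73 in aged MFP, 2.845 in young replicate 1 and 10.33 in young replicate 2. The part of tissue composition in the mast cell values was not tested.

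**Figure D5:**
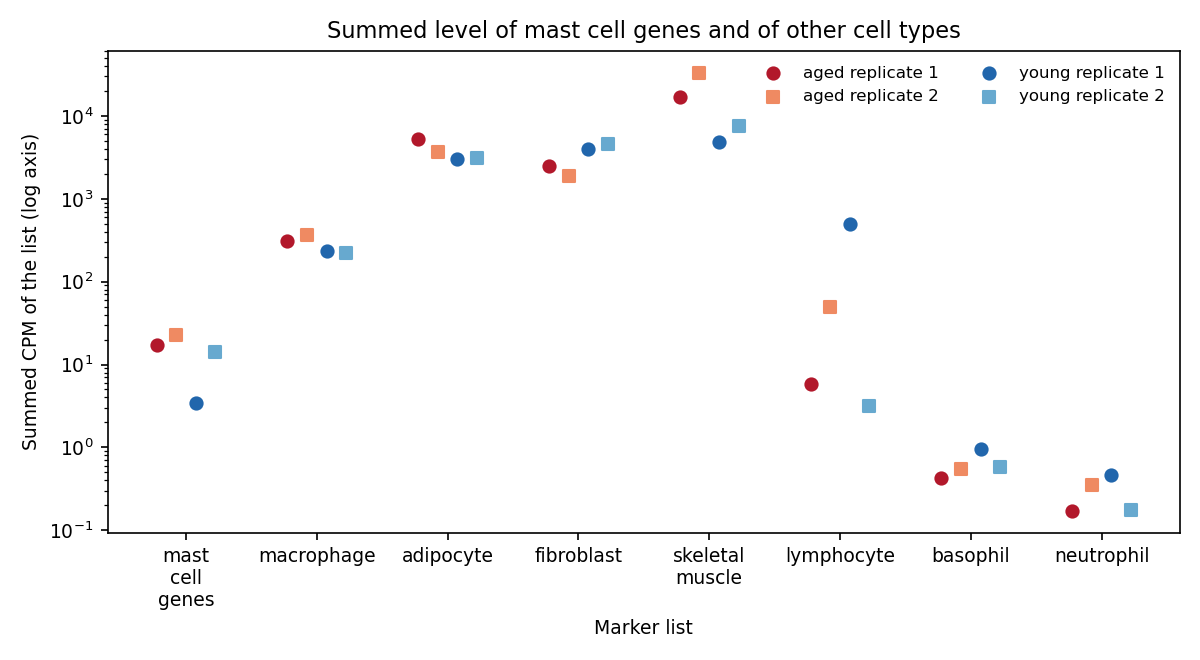
Summed TMM-scaled CPM (log axis) of the 9 mast cell genes and of marker lists of other cell types in each MFP library, with 1 point per library. The mast cell genes are lowest in young replicate 1 (3.45 CPM), the library in which lymphocyte markers are highest (491 CPM), and the muscle markers are higher in both aged libraries.

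The mean profile of the 9 genes over the 4 libraries, as log2 CPM centred on each gene's mean, was 0.52 and 0.75 in aged MFP, -1.56 in young replicate 1 and 0.29 in young replicate 2. Ms4a2 lay nearest to it, at a Euclidean distance of 0.21 on the log2 scale, followed by Tpsb2 at 0.44. Hdc, Fcer1a and Tpsab1 lay farthest, at 1.49, 1.66 and 2.20. Of 16001 other genes with a mean count of at least 100, 70 lay within 0.5 of the mean profile. The nearest were Hs6st2 at 0.11, C530043A13Rik at 0.17, Col17a1 at 0.19, Slco1a5 at 0.21 and Rhov at 0.22. These genes, too, had their lowest value in young replicate 1, as with Hs6st2 at 209 and 268 counts in aged MFP, 46 in young replicate 1 and 172 in young replicate 2. The likeness is over 4 samples that differ most in young replicate 1, and is a description.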

How the data were processed

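Total RNA of whole MFP was depleted of ribosomal RNA and made into directional libraries. For each of 4 samples the authors deposited raw read counts by gene, as whole numbers with no normalization. The submitters' processing notes list featureCounts, R 3.6.1 and the builds GRCm38 and hg38. The aligner, the annotation and the strand setting are not given in the sources used here. Samples were grouped by age from their titles. Nothing states whether a replicate is 1 animal, so that p-values measure the spread between these samples.

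Counts were filtered by the default of filterByExpr (22485 genes kept), TMM-scaled, and compared by the quasi-likelihood test of edgeR 4.0.16 (glmQLFit, glmQLFTest) in R 4.3.3, with age as the only term and Benjamini-Hochberg adjustment over all genes tested. The standard error is the size of the log2 fold change divided by the square root of F. Log2 CPM values use a prior count of 2. DESeq2 1.42.0, which the study's methods name for the MFP, RLE, upper quartile or no scaling between libraries, no filter, a filter of at least 10 counts in every sample, the fit without the legacy method, a replicate block, both tryptases summed, and leaving out each sample in turn were alternatives. A crossed block was added after seeing the data. The code was tested on simulated counts.

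The members, the gene lists and the tests were chosen with earlier results of these data known. Of each list, the genes with the highest and lowest log2 fold change, and any with 0 counts in every sample, were to be named, and the 5 genes with profiles nearest to the members' mean. Kit, Kitl, Slc18a2, Cd3e, Mcpt8, Prss34, S100a8, Col1a1, Col1a2, Col3a1, Pdgfra, Lum and Epx were picked once their values were known. So were Il4, Siglecf, Ccr3, Pi16, Sbsn, Alox5 and the genes passing an unadjusted p. Gene positions are those of GENCODE M21 (GRCm38), where 55141 of the 55487 identifiers were found, and promoters from RefSeq on GRCm38.p6. Intervals and the floor of 3 counts cover counting error only, since reads without molecular identifiers are not independent molecules.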

Additional observations from a re-analysis of the deposited data

How the results depend on the processing

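By edgeR's quasi-likelihood test 0 members passed an adjusted p of 0.05 in every fit run, and 0 did by DESeq2. With DESeq2, 1 of the other mast cell genes (C5ar1) passed where 0 did by edgeR, as did 869 genes of the whole table where 0 did by edgeR, and the cause was not tested. The median log2 fold change of the members, 1.50, ran from 1.31 with total counts only to 1.75 with the replicate block. Leaving out each sample in turn gave 0.64 to 3.12, with the lowest value without young replicate 1 and the highest without young replicate 2. The log2 fold change of Hdc was -0.41, and ran from -1.01 without young replicate 1 to 0.62 without young replicate 2, a reversal that came from the absence of that sample. Among the remaining 156 values, the number of members with no overlap between the ages fell from 6 to 5 under 2 scalings. These were upper quartile scaling and total counts only. The log2 fold changes among the 156 kept their direction. Samples with the same replicate number tended to deviate from their age means in opposite directions, at a correlation of -0.48 across genes. With 2 samples per age this value compares only the gaps within each age. It cannot settle whether the numbers pair the samples. The replicate block changed no call, and a crossed block, added after seeing the data, called 0 genes. Depth limits Fcer1a, Ms4a2 and Tpsab1, which had at most 37 counts in a library.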

Other observations

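Genes that act beside mast cells were measured in the same libraries. The 5 enzymes that make prostaglandin D2 and leukotriene C4 were all positive in log2 fold change (aged over young), at a median of 0.28, and 0 passed the test. Ptgs1, a cyclooxygenase, was highest at 0.49 with 1392 and 1183 counts in aged and 666 and 991 in young MFP. In CPM its ages overlapped, at 17.0 and 13.3 in aged MFP, 8.12 in young replicate 1 and 13.4 in young replicate 2. Alox5ap, which presents the substrate to 5-lipoxygenase, was lowest at 0.23. Without young replicate 1 the median of the 5 was again 0.28, with Ptgs1 at 0.17 and Alox5 at -0.20. For histamine, the receptor Hrh1 had 197 and 223 counts in aged and 65 and 145 in young MFP, at a log2 fold change of 0.83 with no overlap in CPM. Hrh2 overlapped between the ages at -0.04. Hnmt, which breaks histamine down, had 968 and 1068 counts in aged and 703 and 551 in young MFP, at 0.57 (adjusted p = 0.465 in edgeR's quasi-likelihood fit). Without young replicate 1 the log2 fold change of Hrh1 was 0.32 and that of Hnmt 0.67.

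Of the factors that feed or recruit mast cells, 5 of 7 were tested, all with a positive log2 fold change and a median of 0.33, and 0 passed the test. Il33 was highest at 0.43, with 1613 and 560 counts in aged replicates 1 and 2, 920 in young replicate 1 and 595 in young replicate 2. Its ages overlapped, and aged replicate 2 was lowest of all at 6.29 CPM. Tslp was lowest in log2 fold change at 0.30 and overlapped too, and Il3 and Il9 had 0 counts in every library. Kitl, which encodes stem cell factor, had 10358 and 10937 counts in aged MFP, 4338 in young replicate 1 and 9791 in young replicate 2. Young replicate 1 was thus the low library for Kitl, for its receptor Kit and for the 9 mast cell genes alike, and without it the log2 fold change of Kitl was -0.09. The eosinophil marker Prg2 had 19 and 65 counts in aged and 5 counts in each young library. Its log2 fold change was 2.88 (adjusted p = 0.417 in edgeR's quasi-likelihood fit), and it entered the test through its aged libraries alone. Epx, another granule protein of eosinophils, had 2 counts in young replicate 1 and 0 in the others. Siglecf went the other way, with 1 and 2 counts in aged MFP, 9 in young replicate 1 and 6 in young replicate 2. Ccr3 overlapped between the ages, with 0 and 17 counts in aged MFP, 8 in young replicate 1 and 5 in young replicate 2. Epidermis markers, which would enter with skin, summed to between 7.33 and 10.6 CPM. Most of that was Sbsn, at 9.26 and 6.23 CPM in aged MFP, 6.01 in young replicate 1 and 7.05 in young replicate 2. Krt1 had the highest log2 fold change, 1.42, with 24 and 15 counts in aged MFP, 2 in young replicate 1 and 11 in young replicate 2. Without young replicate 1 it was 0.62. Krt10 was lowest at -0.03, and Flg2 had 0 counts in every library. The highest and lowest log2 fold changes in the other lists were Mrc1 at 0.81 and Cd163 at 0.29 for macrophages, Lep at 1.20 and Plin1 at 0.32 for adipocytes, Dcn at 1.33 and Dpp4 at -1.79 for fibroblasts, Myh1 at 3.13 and Mylpf at 1.31 for muscle, and Ms4a1 at -2.60 and Cd3d at -3.78 for lymphocytes, whose median turned from -3.28 to 3.09 without young replicate 1. None of these passed an adjusted p of 0.05 by edgeR's quasi-likelihood test. By DESeq2, 2 of 5 adipocyte and 6 of 8 muscle markers were higher at that threshold. Of 8 fibroblast markers, 1 was higher and 3 were lower. Among all genes, DESeq2 called 713 of 21984, or 3.24%, higher, and 869 in both directions together.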
